A study of Homo sapiens with 9 samples.

Results

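KISS1, its receptor gene KISS1R, MED23 and SP1, which have been reported to act on KISS1 transcription, and CD82, BRMS1, NME1 and NDRG1, all known as metastasis suppressors, were followed across 9 RNA-seq libraries. These 8 genes, chosen by name with earlier results of these data known, are 8 of the 63677 gene identifiers in the count files. The libraries came from 3 lines of SW480, a colon adenocarcinoma cell line of a Dukes C tumor, with 3 libraries per line. SW480 itself was the unmodified parent, and it carried none of the vectors of the other lines. SW480-B was a single-cell clone selected with G418 after transfection of a plasmid in which the CMV promoter drives the BASP1 coding sequence. SW480-gRNA-B-all, labelled SW480-Bsg and called so here, carried lentiviral vectors for dCas9-VP64, for the MS2-P65-HSF1 activator and for a mixture of guide RNAs directed to the promoter of the cell's own BASP1 gene. It was selected with hygromycin B, grown from single cells that carried dCas9-VP64, and selected with puromycin after the guides were added. BASP1 encodes a membrane-bound neuronal signaling protein that also acts as a transcriptional corepressor. Both BASP1 lines are single derivatives of SW480, so that the effect of BASP1 and that of the vectors, the selection or the cloning cannot be told apart. The labels do not say that the libraries of a line came from separate cultures, and the p-values measure the spread between these libraries, which may be technical.

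A metastasis suppressor is a gene whose product hinders the spread of tumor cells to other organs without stopping growth of the primary tumor. KISS1 was found in this way in melanoma. Its product is secreted and cut by proprotein convertases into kisspeptins, which bind the receptor encoded by KISS1R, a receptor coupled to Gq proteins that activates phospholipase C, calcium release and protein kinase C. The remaining genes act by other routes: CD82 encodes a tetraspanin of the plasma membrane, BRMS1 a subunit of SIN3-HDAC corepressor complexes, NME1 a nucleoside diphosphate kinase, and NDRG1 a protein of the cytoplasm that responds to stress and differentiation. SP1 encodes a zinc finger protein that binds GC boxes in promoters, and MED23 a subunit of Mediator, which links such factors to RNA polymerase II.

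To show what the start regions of KISS1 and of its reported regulators hold, the 250 bases before each start are printed 5′ to 3′ on the gene's strand, with every GC box (GGGCGG on either strand) and TATA box (TATAAA on either strand) in capitals. The sequences are those of RefSeq, placed on GRCh37 by a single exact match.
KISS1, chr1:204165620-204165869, minus strand: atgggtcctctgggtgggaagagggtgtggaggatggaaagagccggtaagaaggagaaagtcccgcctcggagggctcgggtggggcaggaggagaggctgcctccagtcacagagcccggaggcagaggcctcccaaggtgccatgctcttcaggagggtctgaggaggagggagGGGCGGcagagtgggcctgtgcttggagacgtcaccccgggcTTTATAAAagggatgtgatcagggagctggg
SP1, chr12:53773710-53773959, plus strand: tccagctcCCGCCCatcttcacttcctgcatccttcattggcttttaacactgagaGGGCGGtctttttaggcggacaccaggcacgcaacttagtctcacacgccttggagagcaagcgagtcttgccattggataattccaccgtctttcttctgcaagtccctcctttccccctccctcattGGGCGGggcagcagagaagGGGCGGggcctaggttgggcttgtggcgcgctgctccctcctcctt
MED23, chr6:131949454-131949703, minus strand: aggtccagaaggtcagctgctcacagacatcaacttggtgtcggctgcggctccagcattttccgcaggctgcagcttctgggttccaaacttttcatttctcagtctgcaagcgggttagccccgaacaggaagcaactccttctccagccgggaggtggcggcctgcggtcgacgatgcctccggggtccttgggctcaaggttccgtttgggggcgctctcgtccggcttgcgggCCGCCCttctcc

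The KISS1 window held 1 GC box, which began 73 bases before the start, and a TATA box read on both strands, with overlapping matches that began 31 and 29 bases before the start. SP1 had 4 GC boxes in the window shown and MED23 had 1, and neither had a TATA box. A further RefSeq window of SP1 (chr12:53774178-53774427), which is not printed, held 8 GC boxes and no TATA box. Of 34788 promoter windows of this length, 42.6% held a GC box and 10.8% a TATA box, so that a GC box was common and a TATA box was not. RefSeq promoters were given for 6 of the 8 genes. CD82 had 4 GC boxes, whereas BRMS1 and NME1 had none. A match of letters is a description and does not show that a factor binds there.

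Each library held between 25238831 and 29355669 counts on genes, and 3 counts, the most that a gene with 0 counts could hide, corresponded to 0.102 to 0.119 CPM (counts relative to the total of the library) before scaling by TMM, a limit for counting error only. Differences are given as log2 fold changes with their standard error (SE). The targeted gene followed the labels: BASP1 stood at 11.3, 8.09 and 0.688 CPM in SW480, 266.1, 269.9 and 254.6 in SW480-B, and 166.5, 308.0 and 304.9 in SW480-Bsg. Both BASP1 lines differed from SW480 (log2 fold change 5.21, adjusted p = 0.025, in SW480-Bsg and 5.29, adjusted p = 0.029, in SW480-B, by edgeR after Benjamini-Hochberg adjustment), and from each other by -0.03 (adjusted p = 0.95). In every library, genes of epithelium were present, such as EPCAM, with 279.4 to 714.6 CPM, KRT8, KRT18 and KRT19. The intestinal genes CDX1 and CEACAM5 were at most at 0.625 and 0.237 CPM. CDX2 had means of 33.8, 61.8 and 3.56 CPM in the order SW480, SW480-B and SW480-Bsg, and VIL1 had 245.2, 32.1 and 11.6. Of the markers of other cell types, COL3A1 and MS4A1 were at 0 and PTPRC at most at 0.217 CPM. ALB reached 35.4 CPM in SW480, and COL1A1 had 2.30 to 10.9 CPM over the libraries, with means of 3.97, 4.90 and 9.44 in the same order of lines. Their part in the results was not tested. Replicates 2 and 3 of SW480-Bsg stood closer to each other than any other pair: 16.6% of genes differed by more than counting noise, against 64.2% to 79.5% in the other pairs of the same line.

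KISS1 (ENSG00000170498, chromosome 1 of GRCh37, 204159469 to 204165619, minus strand) stood apart from the other 7 genes. It had 8, 19 and 35 counts in the SW480 libraries, or 0.262, 0.660 and 1.27 CPM. In SW480-B it had 20, 23 and 36 counts, or 0.769, 0.824 and 1.29 CPM. In SW480-Bsg it had 3039, 1851 and 1763 counts, or 102.8, 62.7 and 59.8 CPM. SW480 and SW480-B overlapped, and each SW480-Bsg library lay far above all 6 others. In these bulk samples, more cells with KISS1 mRNA and more KISS1 mRNA per cell cannot be told apart.

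KISS1 was 101.1-fold higher in SW480-Bsg than in SW480 (log2 fold change 6.66, SE 0.57, adjusted p = 0.0054 by edgeR after Benjamini-Hochberg adjustment), which was the rise in position 3 by size among 16100 genes tested. Against SW480-B, the rise was 77.3-fold (log2 fold change 6.27, SE 0.34, adjusted p = 0.00020 by edgeR), position 5 of 15846 genes. The paper had already listed KISS1 with the most activated genes of these libraries, so its rank and call are not independent of its choice. SW480-B differed from SW480 by 0.42 on the log2 scale (SE 0.61, adjusted p = 0.77 by edgeR), which did not pass the test. KISS1 was higher in SW480-B in each of the 3 pairs of same-numbered libraries, and in the fit blocked on these numbers the log2 fold change was 0.57 (adjusted p = 0.52 by edgeR). The counts of BASP1 itself differed by -0.03 on the log2 scale (SE 0.24) between SW480-Bsg and SW480-B. In the paper's Northern blot, the plasmid transcript of SW480-B was shorter than the cell's own BASP1 transcript in SW480-Bsg. Equal counts in these lines therefore need not by themselves mean equal BASP1 mRNA. On that blot the paper describes the levels of both transcripts as comparable, and likewise the BASP1 protein of both lines by immunoblot. The difference in KISS1 between these lines was called in each of the 6 fits that left out 1 library, with log2 fold changes of 5.98 to 6.54. The difference from SW480 lost its call without replicate 2 of SW480 (log2 fold change 6.62, adjusted p = 0.0501), and stayed called in the other 5 such fits. When the close replicates 2 and 3 were summed as 1 library, the adjusted p of KISS1 was 0.036 against SW480 and 0.00084 against SW480-B.

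**Figure D1:**
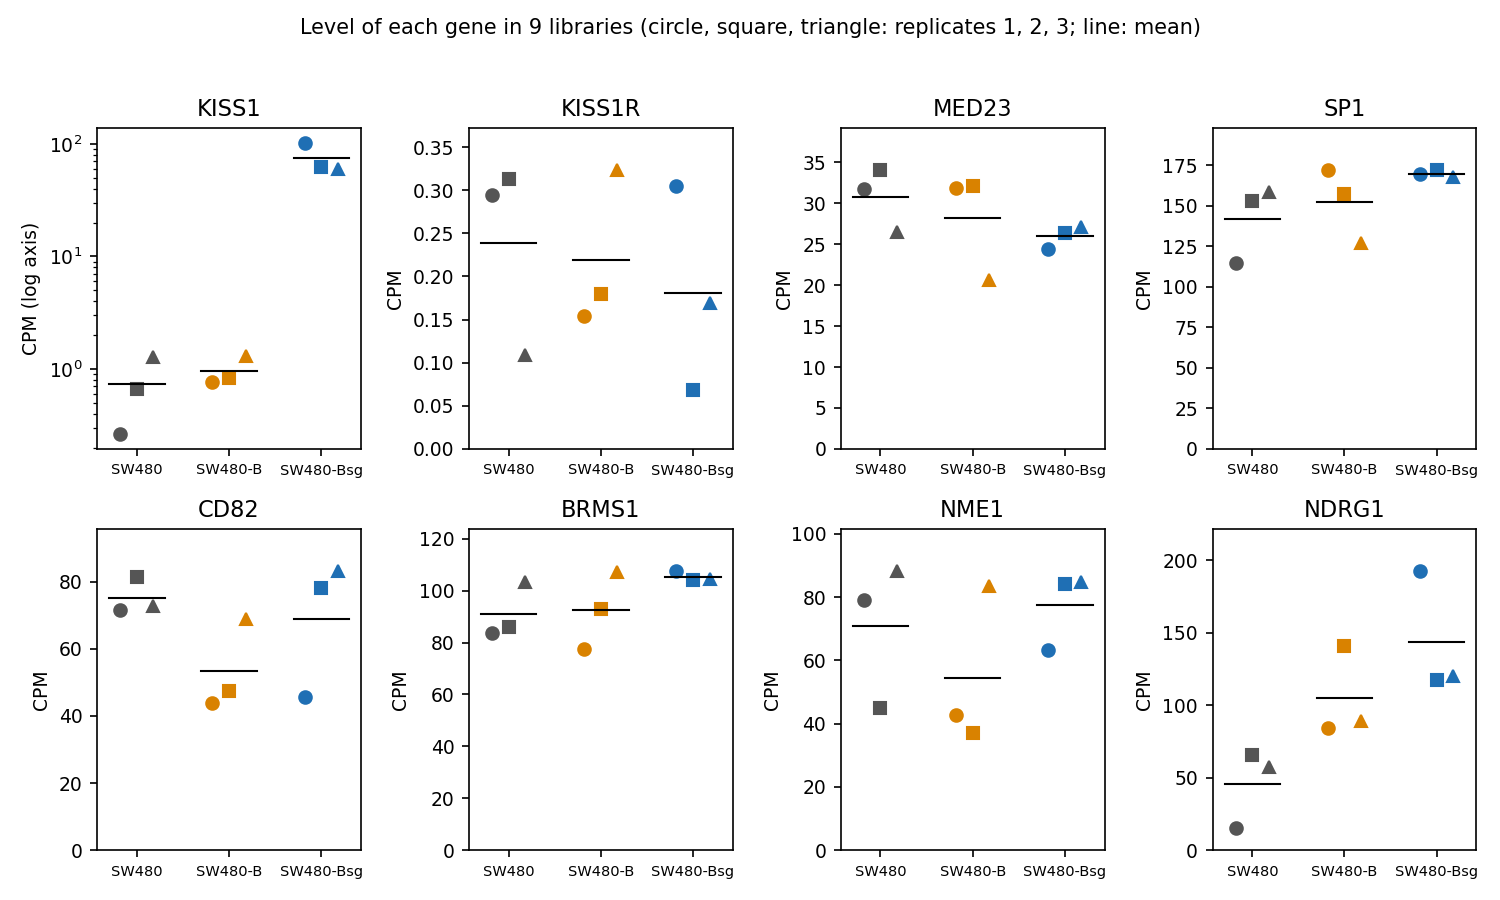
CPM of the 8 genes in each library (y axis; log axis for KISS1, linear from 0 for the others) for the 3 lines on the x axis, with circle, square and triangle for replicates 1, 2 and 3 and a line at the mean. KISS1 sits at 59.8 to 102.8 CPM in SW480-Bsg and at or below 1.29 CPM in the other 6 libraries.

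KISS1R (ENSG00000116014, chromosome 19, 917287 to 921005, plus strand), the gene of the kisspeptin receptor, was close to the limit of these libraries. Its counts were 9, 9 and 3 in SW480, 4, 5 and 9 in SW480-B, and 9, 2 and 5 in SW480-Bsg. Summed per line, these came to 0.240 CPM in SW480 (95% exact Poisson interval 0.149 to 0.367), 0.216 in SW480-B (0.128 to 0.341) and 0.185 in SW480-Bsg (0.106 to 0.301). The intervals overlapped, and a difference was not detectable at this depth. The filter on low counts removed KISS1R from all comparisons. When every gene was kept, the adjusted p of KISS1R was 0.79, 0.97 and 0.87 for SW480-Bsg against SW480, SW480-B against SW480 and SW480-Bsg against SW480-B (edgeR after Benjamini-Hochberg adjustment). In SW480-Bsg, the gene of the ligand had 105.2 ± 33.6 RPKM, the CPM per kilobase of exon (SD, n = 3), and the gene of its receptor 0.108 ± 0.071 RPKM (SD, n = 3).

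Counted over the list, 7 of the 8 genes could be tested, all but KISS1R. In SW480-Bsg against SW480, 1 of the 7 (KISS1) was called, that is, had an adjusted p under 0.05 and a change above 2-fold, beside 6.55% of all genes tested (7.80% without the limit on size). In SW480-B against SW480, 0 of the 7 were called by edgeR, beside 1.34% of all genes (1.34% also without the limit on size). At an unadjusted p under 0.05 there was 1 (NDRG1), and DESeq2 also called 0. In SW480-Bsg against SW480-B, KISS1 was again the 1 gene called, beside 6.68% of all genes (8.76% without the limit on size). The 2 comparisons against SW480 share the same control libraries. Without KISS1, the median log2 fold change of the other 6 genes was 0.12, -0.05 and 0.27 in the 3 comparisons, beside medians of -0.05, -0.004 and -0.004 over all genes tested. Of the 7 genes tested, 4, 2 and 1 had no overlap between the lines, while 37.7%, 22.5% and 30.3% of all genes had none.

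**Figure D2:**
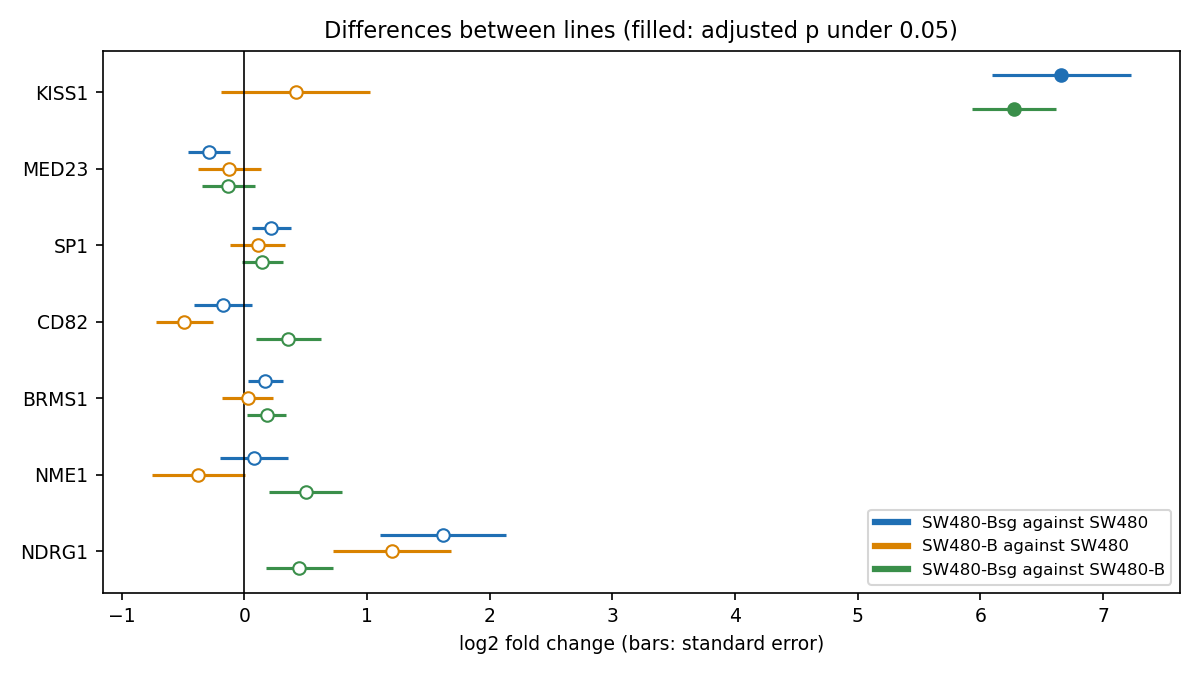
Log2 fold change (x axis, bars are standard errors) of the 7 tested genes (y axis) in 3 comparisons, marked by colour. Filled points have an adjusted p under 0.05: these are the KISS1 points at 6.66 and 6.27, and every other gene lies between -0.49 and 1.62.

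MED23 (ENSG00000112282, chromosome 6, 131895106 to 131949382) stood at 31.8, 34.1 and 26.5 CPM in SW480, 31.8, 32.1 and 20.6 in SW480-B, and 24.4, 26.4 and 27.1 in SW480-Bsg. The 3 lines overlapped, and replicate 3 of SW480-B was the lowest of all. Log2 fold changes were -0.29 (SE 0.17, adjusted p = 0.30) in SW480-Bsg and -0.12 (SE 0.26, adjusted p = 0.85) in SW480-B, both against SW480 and by edgeR after Benjamini-Hochberg adjustment. SP1 (ENSG00000185591, chromosome 12, 53773960 to 53810230) had 114.8, 152.8 and 158.3 CPM in SW480, 172.2, 157.2 and 127.2 in SW480-B, and 169.6, 171.9 and 167.8 in SW480-Bsg. All SW480-Bsg libraries were above all SW480 libraries, but the difference was small and did not pass the test (log2 fold change 0.22, SE 0.16, adjusted p = 0.39). Neither of these reported regulators of KISS1 passed the test in any comparison.

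NDRG1 (ENSG00000104419, chromosome 8, 134249418 to 134314265) had the largest difference after KISS1 among the 7 tested genes in SW480-Bsg against SW480, and the largest of all 7 in SW480-B against SW480. It had 15.1, 65.5 and 57.3 CPM in SW480, 84.2, 141.0 and 88.9 in SW480-B, and 192.4, 117.7 and 120.3 in SW480-Bsg. Every library of both BASP1 lines was above every SW480 library, and replicate 1 of SW480 was far below the other SW480 libraries. The difference did not pass the test in SW480-Bsg (log2 fold change 1.62, SE 0.51, adjusted p = 0.095 by edgeR after Benjamini-Hochberg adjustment) or in SW480-B (1.20, SE 0.48, adjusted p = 0.28). In SW480-Bsg against SW480, it passed with all 9 libraries in 1 fit (1.63, adjusted p = 0.049), with DESeq2 (1.65, adjusted p = 0.012) and without replicate 1 of SW480 (1.22, adjusted p = 0.047), and not under the other 10 alternatives, where the adjusted p reached 0.22.

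CD82 (ENSG00000085117, chromosome 11, 44585977 to 44641908) had 71.7, 81.5 and 72.8 CPM in SW480, 43.9, 47.5 and 68.8 in SW480-B, and 45.5, 78.3 and 83.2 in SW480-Bsg. All SW480-B libraries were below all SW480 libraries, without passing the test (log2 fold change -0.49, SE 0.23, adjusted p = 0.35 by edgeR after Benjamini-Hochberg adjustment). In SW480-Bsg, replicate 1 was at the level of the low SW480-B libraries and the other replicates at that of SW480, so that the log2 fold change was -0.17 with all libraries and 0.06 without replicate 1 (adjusted p = 0.65 with all libraries). CD82 shares 280 exon bases with the antisense gene CD82-AS1, which had at most 1 count.

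BRMS1 (ENSG00000174744, chromosome 11, 66104804 to 66112596) had 83.6, 86.2 and 103.4 CPM in SW480, 77.4, 93.1 and 107.0 in SW480-B, and 107.6, 104.2 and 104.6 in SW480-Bsg. The SW480-Bsg libraries were above the SW480 libraries by a small margin that did not pass the test (log2 fold change 0.17, SE 0.14, adjusted p = 0.46 by edgeR after Benjamini-Hochberg adjustment). In SW480-B the log2 fold change was 0.03 (adjusted p = 0.96). BRMS1 was lower in libraries with more fragments outside genes: across the 9 libraries, which share 3 lines, its log2 level and that share, which ran from 5.22% to 9.93%, had a Pearson correlation of -0.93. Both shares, on no gene and on more than 1 gene, were set beside every tested gene. This correlation and that of NME1 below were the largest in size. MED23 had 0.61 with the share on no gene and -0.69 with the share on more than 1 gene. BRMS1 had 0.70 with the latter. The part of the share on no gene in the values of BRMS1 was not tested.

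NME1 (ENSG00000239672, chromosome 17, 49230920 to 49239789) had 79.0, 45.0 and 88.2 CPM in SW480, 42.7, 37.1 and 83.5 in SW480-B, and 63.2, 84.2 and 84.6 in SW480-Bsg. The low libraries, at or below 45.0 CPM, were replicate 2 of SW480 and replicates 1 and 2 of SW480-B. NME1 did not pass the test in any comparison with all libraries; its log2 fold change of 0.50 against SW480-B (SE 0.30, adjusted p = 0.35 by edgeR after Benjamini-Hochberg adjustment) became 0.94 without replicate 3 of SW480-B (adjusted p = 0.026). The 3 low libraries also held the smallest shares of fragments that fell on more than 1 gene, 3.09% to 3.16% against 3.39% to 3.44% in the other 6, and the correlation of the log2 level with this share was 0.94 across the 9 libraries. NME1 shares 638 of its 3415 exon bases, or 18.7%, with the readthrough gene NME1-NME2, and in counts of the kind that the closing lines of the files point to, fragments on both are left out as ambiguous, although the counting program is not stated. NME1-NME2 had 0 counts in each library and NME2 25 to 51. If so, the values of NME1 cover the part of the gene that is not shared. The part of the ambiguous fragments in the split between libraries was not tested.

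**Figure D3:**
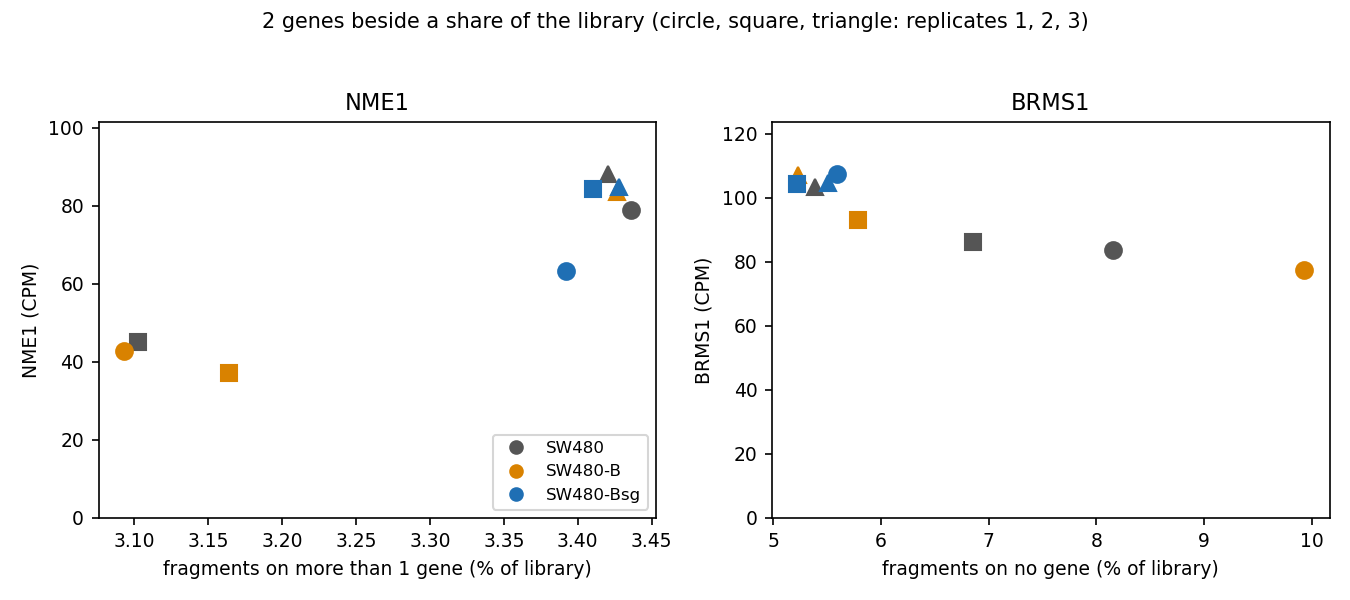
Left, NME1 in CPM (y axis) against the percentage of fragments on more than 1 gene (x axis), and right, BRMS1 in CPM against the percentage of fragments on no gene, for 9 libraries coloured by line. The 3 libraries with NME1 at or below 45.0 CPM lie at 3.09% to 3.16% and include both SW480 and SW480-B. NME1 and BRMS1 are shown because their correlations with a share were the largest among the tested genes.

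Ordered by mean level per length in SW480, BRMS1 (36.2 ± 4.26 RPKM, SD, n = 3) came before NME1 (20.7 ± 6.66), CD82 (18.6 ± 1.34) and SP1 (17.6 ± 2.93), whose ranges over the libraries overlapped. MED23 (4.15 ± 0.526 RPKM) and NDRG1 (3.83 ± 2.25) followed and overlapped as well. KISS1 had 1.02 ± 0.709 RPKM and KISS1R 0.143 ± 0.068. In SW480-Bsg, KISS1 came first, with 83.8 to 144.0 RPKM over the libraries, above BRMS1 with 41.4 to 42.8. Lengths are those of merged exons, and the value of NME1 may leave out fragments on its shared part.

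The genes next to KISS1 were followed to see how far along the chromosome a difference reached. GOLT1A, a gene of vesicle transport, lies 1672 bases from KISS1 and had means of 4.03, 4.84 and 10.5 CPM in SW480, SW480-B and SW480-Bsg. It rose against SW480-B (log2 fold change 1.11, SE 0.26, adjusted p = 0.036), a call that was lost in each of the 6 fits that left out 1 library, and did not pass against SW480 (1.32, SE 0.40, adjusted p = 0.085; edgeR after Benjamini-Hochberg adjustment). PLEKHA6, a gene with a pleckstrin homology domain 22362 bases away, had means of 34.5, 34.7 and 56.9 CPM. It rose by less than 2-fold against SW480 (log2 fold change 0.68, adjusted p = 0.038) and against SW480-B (0.70, adjusted p = 0.031). The other values within 250 kb did not pass: SOX13 (0.11 against SW480), ETNK2 (0.99), PPP1R15B (-0.14) and PIK3C2B (-1.07). Within 1000 kb on either side, 17 neighbours were tested against SW480, with a median log2 fold change of 0.03, and 1 was called. Against SW480-B, 3 of 17 were called, all higher, at a median of 0.12, and within 500 kb 2 of 12. Over all genes, 1.89% were called higher against SW480 and 2.31% against SW480-B. The called neighbours, named after their values were seen, were LRRN2, 421 kb away, in both comparisons (means of 0.126, 0.049 and 1.07 CPM in SW480, SW480-B and SW480-Bsg), and GOLT1A and NFASC, 632 kb away (0.854, 0.768 and 2.45 CPM), against SW480-B. LRRN2 was near or below the counting floor in SW480 and SW480-B. Whether the calls of LRRN2 and NFASC hold with 1 library left out was not followed.

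**Figure D4:**
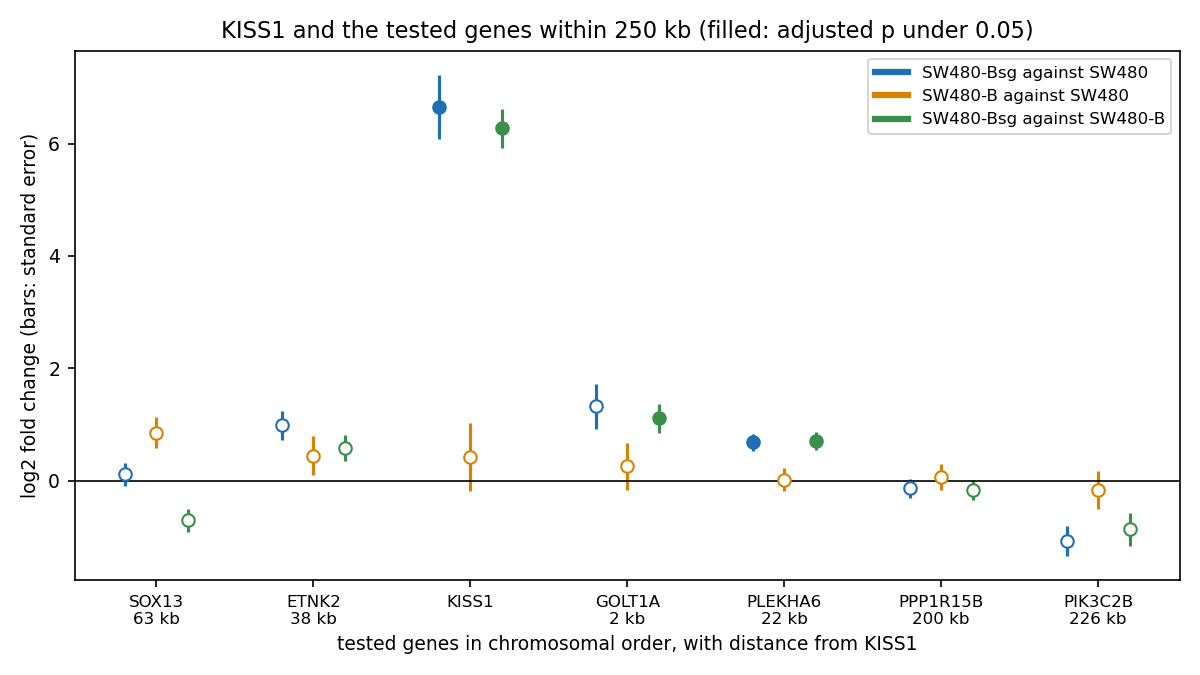
Log2 fold change (y axis, bars are standard errors) of KISS1 and the 6 tested genes within 250 kb, in chromosomal order with their distance from KISS1 on the x axis, for 3 comparisons marked by colour. Filled points have an adjusted p under 0.05: KISS1 at 6.66 and 6.27, GOLT1A at 1.11 and PLEKHA6 at 0.68 and 0.70.

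Over the 9 libraries and 14745 genes with at least 1 CPM in a line on average, the genes whose log2 levels were most like KISS1 by Pearson correlation were ENSG00000272016, a gene without a symbol (0.995), ATP6V0D1-DT, a divergent transcript (0.994), CNTNAP1, which encodes a contactin-associated membrane protein (0.989), CSF1, the macrophage growth factor (0.987), and CCDC153 (0.985). CNTNAP1 had means of 0.981, 1.25 and 17.2 CPM in SW480, SW480-B and SW480-Bsg. CSF1 had 1.16, 1.52 and 5.91 CPM. These genes were likewise near each other in SW480 and SW480-B and higher in SW480-Bsg, which is the pattern that the measure selects.

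Genes that act with the 8 genes were grouped into 10 lists, which held 172 genes in all and included the members that belong to them. Of 153 tested against SW480 in SW480-Bsg, 5 were called higher and 10 lower, beside 1.89% and 4.66% of all genes. In SW480-B, 0 of 153 were called higher by edgeR and 4 lower, beside 0.0931% and 1.25% of all genes. Against SW480-B, 4 of 150 were called higher and 11 lower, beside 2.31% and 4.37% of all genes. Many of these calls were lost when 1 library was left out. Of the 15 against SW480, 14 were lost without replicate 2 of SW480, 10 or more without any 1 of the SW480-Bsg libraries, 1 without replicate 1 of SW480 and 0 without replicate 3, and SP5 alone was called in all 6 fits. All 4 calls in SW480-B were lost when any 1 of its own libraries was left out, and 3 of them without replicate 2 of SW480. Of the 15 against SW480-B, 6 were called in all 6 fits: PLCB4, TSPAN14, TSPAN8, CDK8, MTSS1 and SP5.

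Downstream of the kisspeptin receptor, 17 genes for Gq subunits, phospholipase C beta, IP3 receptors, protein kinase C, arrestins, ERK kinases and RHOA were tested, and their median difference on the log2 scale was 0.30 in SW480-Bsg and 0.06 in SW480-B against SW480. PLCB4, a phospholipase C beta, rose from 13.8 ± 5.39 CPM in SW480 to 35.8 ± 1.51 in SW480-Bsg (SD, n = 3; log2 fold change 1.34, adjusted p = 0.040), and by 1.14 against SW480-B (adjusted p = 0.0069; edgeR after Benjamini-Hochberg adjustment throughout). ITPR1, an IP3 receptor gene, rose against SW480-B (1.36, adjusted p = 0.028), and GNAQ, the Gq alpha subunit, fell by less than 2-fold (-0.83, adjusted p = 0.042). Of the proteases that cut the KISS1 product or kisspeptins, 0 of 8 were called by edgeR in any comparison, at median log2 fold changes of 0.36 in SW480-Bsg and 0.68 in SW480-B against SW480. At an unadjusted p under 0.05 there were 0, 2 and 5 of them in the 3 comparisons, and DESeq2 called 1, 0 and 1. Over all genes, edgeR called 6.55%, 1.34% and 6.68%, so that 0 of 8 is near the background.

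Of the reported KISS1 regulators, 0 of 9 were called against SW480 in SW480-Bsg (median log2 fold change -0.29) and 0 of 10 in SW480-B (-0.11) by edgeR. Over all genes, 6.55% and 1.34% were called, so that counts of 0 in so short a list are near the background. At an unadjusted p under 0.05 there were 2 and 0 of these regulators, and DESeq2 called 0 in both. Against SW480-B, GATA2, a zinc finger factor, fell from 72.3 ± 9.47 to 35.8 ± 5.06 CPM (SD, n = 3; log2 fold change -1.02, adjusted p = 0.011 by edgeR after Benjamini-Hochberg adjustment). SP and KLF factors, which bind GC-rich and CACCC sequences, had 4 called of 19 against SW480 in SW480-Bsg, beside 6.55% of all genes. SP5 fell from 136.9 ± 5.46 to 18.8 ± 0.886 CPM (log2 fold change -2.91, SE 0.15, adjusted p = 0.0028), KLF5 fell by 2.23 and KLF12 by 1.05 on the log2 scale, and KLF9 rose by 1.81. SP5 was also lower than in SW480-B (-2.09, adjusted p = 0.00099), as were KLF5 (-1.47) and KLF15 (-1.64). In SW480-B against SW480, 0 of the 19 were called by edgeR, beside 1.34% of all genes, with 4 at an unadjusted p under 0.05 and 3 called by DESeq2.

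Among 33 Mediator subunits and their kinase module, whose list includes MED23, the median log2 fold change was 0.02 in SW480-Bsg and -0.03 in SW480-B. MED12L, a subunit of the kinase module, rose against SW480 (1.31, adjusted p = 0.043) and MED14, a subunit of the core, fell by less than 2-fold (-0.77, adjusted p = 0.040; edgeR after Benjamini-Hochberg adjustment). CDK8, the kinase of the module, fell from 184.1 ± 38.9 CPM in SW480-B to 61.2 ± 3.20 in SW480-Bsg (SD, n = 3; log2 fold change -1.59, adjusted p = 0.0031). Below 2-fold, MED13L fell (-0.85) and MED12L rose (0.83) against SW480-B. Of the 17 genes of BRMS1 and the SIN3-HDAC complexes, 0 passed in any comparison, at medians of -0.12 in SW480-Bsg and -0.08 in SW480-B against SW480. DESeq2 also called 0, and 4, 1 and 5 had an unadjusted p under 0.05 in edgeR. The NME family likewise had 0 of 6 called in each comparison, at medians of 0.07 and -0.35, and DESeq2 called 0 as well, with 0, 1 and 2 at an unadjusted p under 0.05 in edgeR. Over all genes, 6.55%, 1.34% and 6.68% were called in the 3 comparisons, and 7.80%, 1.34% and 8.76% passed at any size. Counts of 0 in lists this short are near these shares.

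In the NDRG family, NDRG2 rose from 1.94 ± 0.430 CPM in SW480 to 7.06 ± 2.68 in SW480-Bsg (SD, n = 3; log2 fold change 1.80, adjusted p = 0.043), and by 1.68 against SW480-B (adjusted p = 0.026; edgeR after Benjamini-Hochberg adjustment). NDRG2 was thus called by edgeR where NDRG1 was not, while the sizes of the differences from SW480, 1.80 and 1.62, were near each other. In each comparison, the NDRG2 call held in 2 of the 6 fits that left out 1 library, and was lost with the close libraries summed. DESeq2 called 2 of the 4 NDRG genes against SW480 in SW480-Bsg, NDRG1 among them. CD82 and the other tetraspanins had 4 of 20 called in SW480-Bsg against SW480, again beside 6.55% of all genes. TSPAN8, a tetraspanin of many epithelial tumors, had 311, 70 and 18 counts in SW480, 197, 146 and 72 in SW480-B, and 0, 3 and 0 in SW480-Bsg. Its summed level was 131.6 times higher in SW480 (95% counting interval 44.7 to 640.8) and 143.3 times higher in SW480-B (48.7 to 697.8) than in SW480-Bsg. TSPAN7 was low in both BASP1 lines, with 155, 179 and 35 counts in SW480, 7, 6 and 2 in SW480-B, and 5, 1 and 10 in SW480-Bsg. TSPAN12 fell (-1.56) and TSPAN31 rose (1.02) against SW480, and TSPAN14 rose against SW480-B (1.14, adjusted p = 0.0043). TSPAN6 (0.99) and TSPAN31 (0.78) rose against SW480-B by less than 2-fold.

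Among the other metastasis suppressors, 22 were tested in SW480-Bsg against SW480, and 0 were called higher by edgeR and 4 lower, at a median log2 difference of -0.41. Over all genes 1.89% were called higher, so that a count of 0 among 22 is near the background, and 4.66% were called lower. At an unadjusted p under 0.05, 4 were higher and 8 lower, and DESeq2 called 1 higher and 5 lower. CDH11, a mesenchymal cadherin, had 368, 1315 and 388 counts in SW480, 12, 20 and 4 in SW480-B, and 9, 1 and 0 in SW480-Bsg. DPYSL3, a cytoskeletal protein of growing axons, fell from 140.5 ± 55.2 CPM in SW480 to 24.0 ± 9.31 in SW480-B and 9.60 ± 1.87 in SW480-Bsg (SD, n = 3). MTSS1, a membrane-bending actin regulator, fell from 31.6 ± 6.33 to 9.30 ± 1.49 CPM in SW480-Bsg (log2 fold change -1.80, adjusted p = 0.011 by edgeR after Benjamini-Hochberg adjustment), and the kinase gene HUNK by 1.91 on the log2 scale. In SW480-B against SW480, 3 of 21 were called lower, at a median of -0.32, beside 1.25% of all genes. They were CDH11, DPYSL3 and MAP2K6, a kinase of the p38 pathway. MAP2K6 had 699, 165 and 80 counts in SW480 and 3, 9 and 3 in SW480-B. Each of these 3 calls was lost when any 1 of the SW480-B libraries was left out. Against SW480-B, MTSS1 (-2.10), TIMP3 (-1.53), DPYSL3 (-1.33) and CADM1 (-1.04) were lower in SW480-Bsg, and CDH1, the epithelial cadherin, fell by less than 2-fold (-0.89, adjusted p = 0.020 by edgeR).

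**Figure D5:**
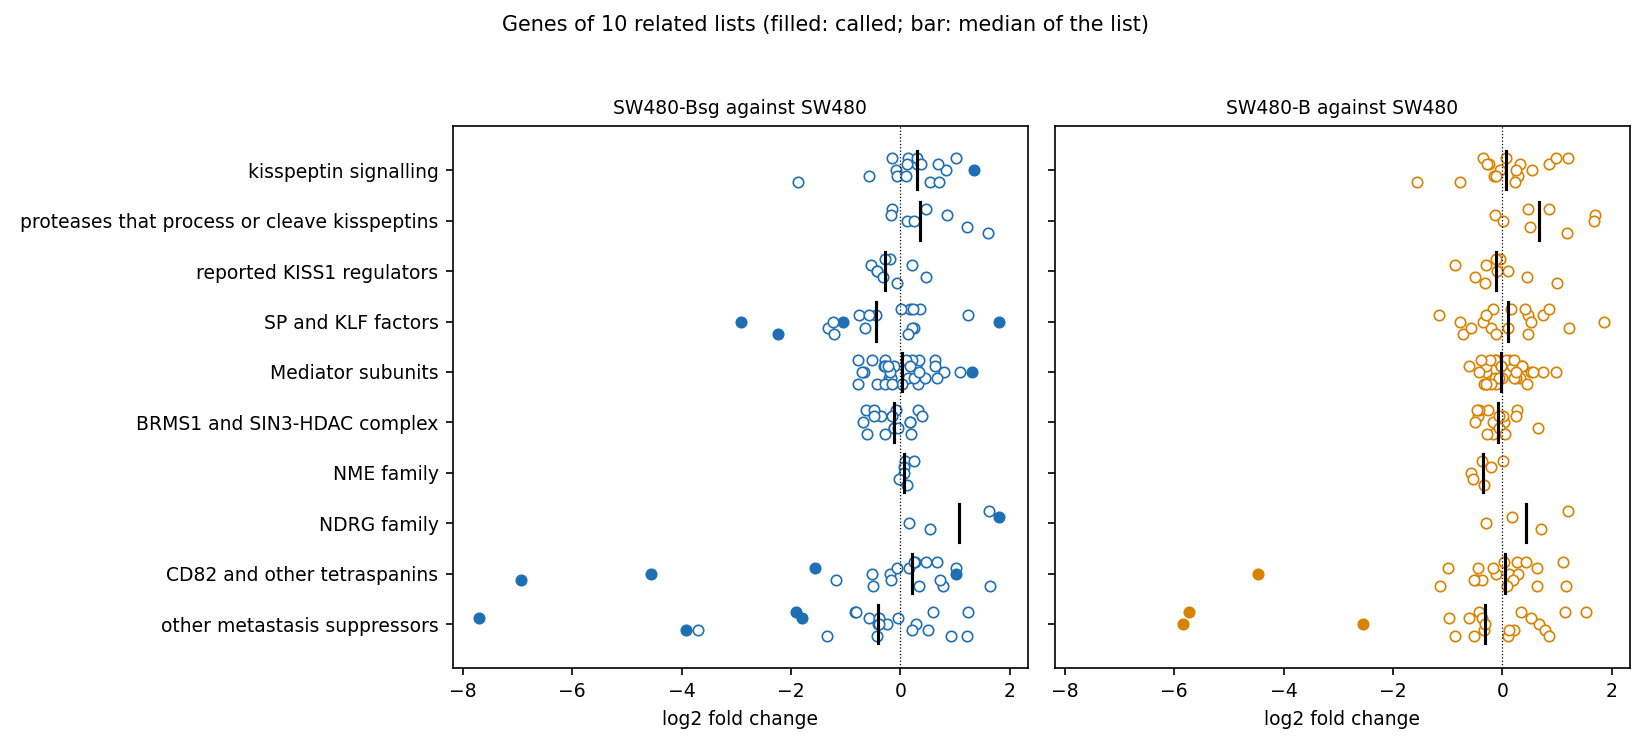
Log2 fold change (x axis) of each tested gene of 10 lists (y axis) in SW480-Bsg (left) and SW480-B (right) against the same SW480 libraries; filled points were called and black bars are list medians. In the list of other metastasis suppressors, 4 and 3 genes are filled and all of them lie below 0. Over all genes, 4.66% and 1.25% were called lower.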

How the data were processed

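Total RNA was isolated by the authors, and a company prepared 9 libraries, 3 per line, and sequenced them as stranded paired reads of poly(A) RNA. Reads were aligned by the authors to GRCh37 (Ensembl annotation), who deposited raw counts of fragments per gene. The counting program and versions are not given in the sources used here. Quality metrics that were also deposited were not used. Lines that name no gene (3.09% to 3.44% ambiguous fragments, 5.22% to 9.93% on no gene) stayed out of library sizes and tests. Of 63677 identifiers, 55665 matched a symbol.

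The lines were compared in pairs, over 6 libraries each, with edgeR 4.0.16 in R 4.3.3: filterByExpr (least count 10, least total 15), TMM, and the robust quasi-likelihood test with Benjamini-Hochberg adjustment over all genes tested. A gene was called at an adjusted p under 0.05 and a change above 2-fold. Dividing the log2 fold change by the root of F gave its standard error. CPM uses TMM factors over 9 libraries, RPKM merged exon lengths of GENCODE lifted to GRCh37. Correlations use log2(CPM + 0.5). Named were the 8 genes, tested neighbours of KISS1 within 250 kb, overlapping genes, the 5 genes most like KISS1, and up to 4 called genes per list and direction with the largest changes, besides BASP1, list genes that passed below 2-fold and 2 called genes farther from KISS1. The members and lists were chosen with earlier results of these data known. The fits were tested on simulated data. Intervals and floors cover counting error only.

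Same-numbered libraries of SW480-B and SW480 deviated together (correlations 0.290, 0.324 and 0.394). In SW480-Bsg, replicates 1 and 3 had correlations with SW480 of a like size (0.291 and 0.268), but replicate 2 did not (-0.036). The labels do not state a pairing. The main fits carried no block, and the replicate numbers were used as a block only as an alternative.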

Additional observations from a re-analysis of the deposited data

Results flagged for a closer look

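KISS1 differed between the BASP1 lines: its log2 fold change was 6.27 in SW480-Bsg against SW480-B (adjusted p = 0.00020 by edgeR after Benjamini-Hochberg adjustment). This test compared the 2 lines directly, over their own 6 libraries and without those of SW480. All 3 SW480-Bsg libraries were above all 3 SW480-B libraries. BASP1 counts differed by -0.03 on the log2 scale between the lines, but their BASP1 transcripts differ in length. Equal counts therefore need not by themselves mean equal BASP1 mRNA. The paper describes the levels of both transcripts by Northern blot, and of the protein by immunoblot, as comparable.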

How the results depend on the processing

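KISS1 was called against SW480 in 12 of 13 alternatives (6.28 to 7.32 with 1 library left out; not without replicate 2 of SW480, 6.62) and against SW480-B in 13 of 13. For the other members, 216 of 228 values kept their direction and side of the threshold. In SW480-Bsg against SW480, NDRG1 passed under 3 alternatives (all 9 libraries in 1 fit 1.63, DESeq2 1.65, without replicate 1 of SW480 1.22), NME1 turned to -0.14 without replicate 2 of SW480 and CD82 to 0.059 without replicate 1 of SW480-Bsg. In SW480-B against SW480, BRMS1 turned to -0.0088 with all 9 libraries and to -0.012, -0.035 and -0.094 without replicates 1 and 2 of SW480 and replicate 3 of SW480-B, SP1 to -0.0076 without replicate 1 of SW480, and MED23 to 0.060 without replicate 3 of SW480-B. None of these turned values passed. With 1 library left out, the ranges were -0.14 to 0.29 for NME1 and -0.31 to 0.059 for CD82 in SW480-Bsg, and -0.094 to 0.14 for BRMS1, -0.0076 to 0.22 for SP1 and -0.23 to 0.060 for MED23 in SW480-B, all against SW480. NME1 against SW480-B passed without replicate 3 of SW480-B (0.94).

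Counts of genes called moved more. In SW480-Bsg against SW480, 1055 became 2380 with DESeq2, 97 with the close libraries summed and 8 to 2659 with 1 library left out. In SW480-B against SW480, 216 became 735 with no filter, 143 at 1 CPM or more in 3 libraries, 452 with all 9 libraries, 1095 with DESeq2 and 0 to 921 with 1 library left out. The counts of 0 came without replicates 1 or 2 of SW480-B, with 1951 and 1676 genes at an unadjusted p under 0.05 in edgeR. Against SW480-B, 1059 became 654 with all 9 libraries, 446 with the libraries summed and 420 to 1548 with 1 left out. The causes were not tested. With the replicate block, 319 genes were called in SW480-B against SW480, 1199 in SW480-Bsg against SW480 and 1389 against SW480-B, and the block changed no call of a member. KISS1 could not be tested in SW480-B against SW480 at 1 CPM or more in 3 libraries. A gene near KISS1R's level cannot be compared at this depth.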

Other observations

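By the measure used for KISS1, the genes most like other members were also read, a choice made after the values were seen. NDRG1 was most like TGFB1, a growth factor gene, with a Pearson correlation of 0.995 over the 9 libraries, and TGFB1 had means of 53.5, 84.9 and 99.4 CPM in SW480, SW480-B and SW480-Bsg. NME1 was most like ANAPC15, an anaphase-promoting complex gene (0.993, with means of 38.1, 29.4 and 40.7 CPM), and ZNF511 (0.992). Among the 7 members themselves the correlations ran from -0.82, between MED23 and BRMS1, to 0.76, between SP1 and NDRG1. All of these are descriptions over libraries of 3 lines.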
